A study of Mus musculus with 8 samples.

Results

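The 48 genes described here encode the machinery that copies DNA and supplies its nucleotides, among 19938 genes measured by the array. They were taken as a fixed list of gene symbols, chosen with earlier results of these data known. Each of the 48 had a probe set annotated with its symbol alone. Macrophages drawn into the mouse peritoneum by thioglycollate, an irritant broth, were collected on day 5 and cultured with or without acetylated low-density lipoprotein (acLDL), a modified lipoprotein that loads them with cholesterol. The animals were C57BL/6J mice without any named genetic change, and no age is stated in the labels. The 4 arrays of acLDL cells and 4 arrays of unloaded cells (cultured with no added agent) are called independent biological replicates, but the labels do not say which mice went into which culture, so p-values measure only the spread between these arrays. The sample protocols name 20 µg/mL acLDL for 3 days, while the series text names 50 µg/mL for 2 days, so dose and time are not settled.

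Before a cell copies its DNA, the origin recognition complex (ORC) with Cdc6 and Cdt1 loads the ring-shaped MCM2-7 helicase onto origins, which is called licensing. Cyclin E with its kinase, Cdc45, the GINS complex and Mcm10 then help to turn the helicase on, and primase and DNA polymerases alpha, delta and epsilon copy the strands with the sliding clamp PCNA. Many of these genes are transcribed under E2F factors when a cell leaves the resting state. Elicited macrophages are mature cells of which few divide in culture, so that their replication genes are usually low.

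All values are deposited log2 expression values, in which 1 unit is a doubling. Values below are in the order of arrays 1 to 4 of a group, and differences are acLDL minus unloaded. Sterol synthesis genes, which cholesterol loading is known to repress, fell in 12 of 12 measured cases, with a median log2 difference of -1.60. As a rough background level the mean values of 1027 olfactory receptor genes were used, of which 95% lie under 6.12. Macrophage markers lay above it in 10 of 10 cases, and 7 of the 10 changed (70%, beside 23.3% over all genes tested). Fcgr1 rose by 0.71, Itgam by 0.63, Adgre1 by 0.59, Mertk by 0.33 and Spi1 by 0.28, while Cd14 fell by 0.33 and Ptprc by 0.23. The mean level of the list was 10.6 to 10.7 on acLDL arrays and 10.4 to 10.5 on unloaded arrays, and the part of this shift in the results below was not tested. Markers of mesothelial cells and fibroblasts lay above the olfactory level in 9 of 12 cases. Unloaded arrays 1 and 4 stood apart from unloaded arrays 2 and 3 on the second principal component, which held 18% of the variance, against 53.5% on the first, which separated the groups.

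Of the 48 genes, 19 rose, 1 fell and 28 did not pass an adjusted p of 0.05 in limma. That is 39.6% higher and 2.08% lower, beside 12.9% higher and 10.5% lower over all genes tested (23.3% in either direction). Genes at or below the olfactory level are counted in these shares. With the test run over the 11653 genes above that level alone, 2612 rose and 1869 fell. Of the 48 genes 39 were among these, of which 17 rose and 1 fell. The median log2 difference of the 48 genes was 0.17, beside -0.0031 over all genes. The largest rise, in Mcm2, was 1.36-fold, and the sign was positive in 39 of 48 genes. The 4 acLDL arrays lay apart from the 4 unloaded arrays in 21 of the 48 genes, 20 of them with acLDL higher, where 25.6% of all genes were so separated. By role, the rises were in 5 of 6 MCM helicase subunits, 4 of 6 genes of origin firing, 4 of 8 primase and polymerase genes, 3 of 9 genes of the clamp, its loader and single-strand binding, 1 of 2 genes of Okazaki fragment maturation, 1 of 5 genes of nucleotide supply and 1 of 4 genes of chromatin assembly and repair. None of the 8 origin recognition and licensing genes passed in either direction, with an unadjusted p under 0.05 for Orc4, Orc5 and Cdc6. Leaving out each array in turn gave 14 to 20 rises. Without unloaded arrays 2 and 3 there were 13 rises and 4 falls (Mcm3, Mcm4, Mcm7, Gins2, Rfc4, Rpa1 and Rrm2 no longer passed), and without unloaded arrays 1 and 4 there were 15 rises and 0 falls.

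**Figure D1:**
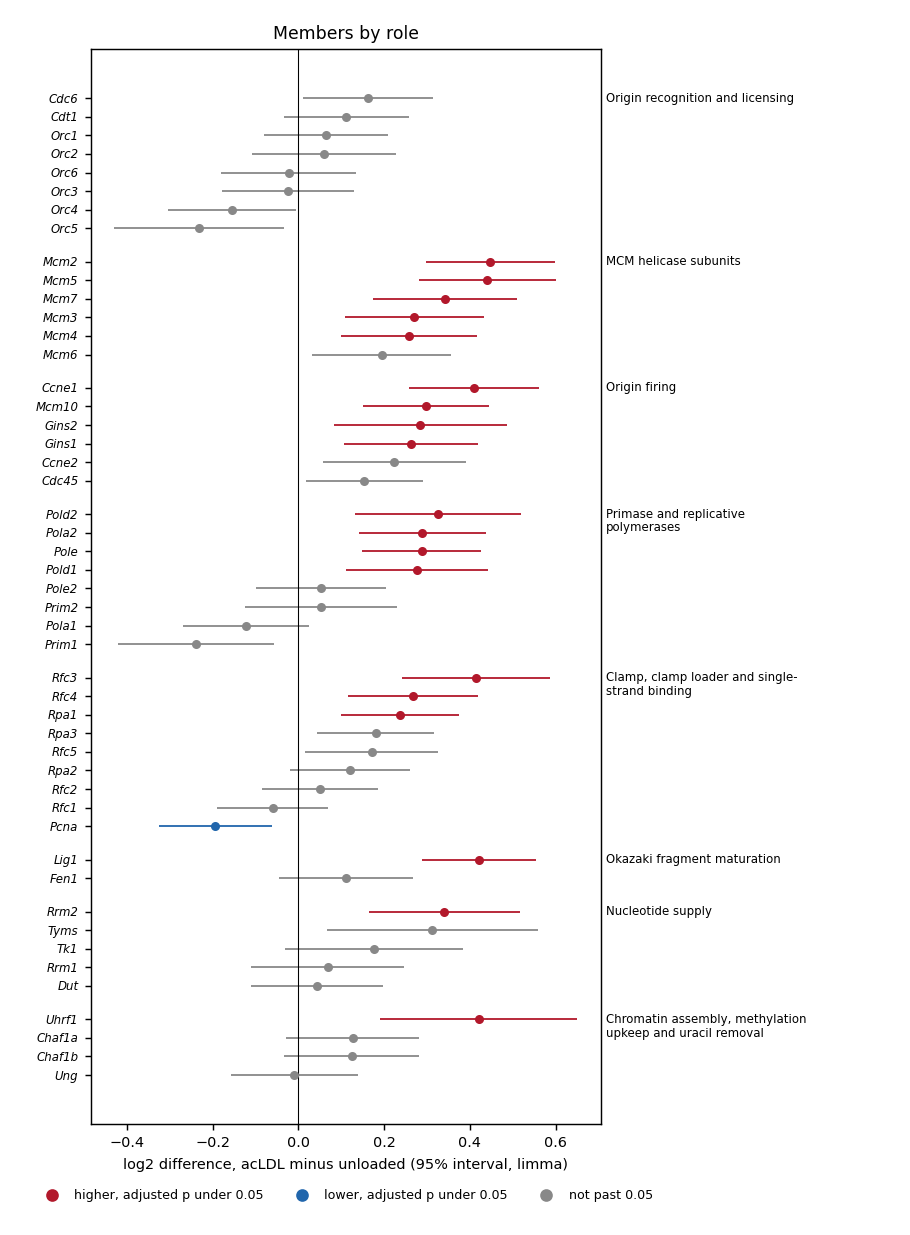
Log2 difference between acLDL and unloaded cells (x axis) for each of the 48 genes (y axis), grouped by role, with 95% intervals from limma over 4 arrays each. Points in the MCM and origin firing groups lie right of 0 throughout, those of the licensing group scatter between -0.23 and 0.16, and Pcna is the single gene past the threshold on the left.

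By their mean over the 8 arrays, 39 of the 48 genes lay above the olfactory level, beside 11653 of all 19938 genes tested. The 9 of the 48 that did not were Orc1, Cdc6, Ccne2, Gins1, Mcm10, Prim1, Pole, Tyms and Dut. Differences of genes near background may be understated on this scale. Of the 19 that rose, 16 lay above it, and Gins1, Mcm10 and Pole did not. The arrays were made from whole cultures, so more dividing cells and more RNA of these genes per cell cannot be told apart.

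Promoter sequences were available for 41 of the 48 genes, from RefSeq for assembly GRCm38.p6, as windows of 300 bases that run from 250 before the transcription start to 50 bases from it on. They were searched on either strand for the E2F-type motifs TTTCCCGC, TTTCGCGC, TTTGCCGC and TTTGGCGC. A match was present in 14 of 41 genes (34.1%), beside 704 of 27025 genes with a window (2.6%) and 744 of 32851 windows (2.26%). Some genes have several windows, and a gene was counted if any held a match. Among the genes that rose 7 of 15 had a match, among those that did not pass 7 of 25, and the window of Pcna, the gene that fell, had none. By role, a match was found in 4 of 5 MCM genes, 4 of 8 licensing genes, 3 of 6 primase and polymerase genes, 1 of 2 genes of Okazaki fragment maturation, 1 of 4 chromatin genes, 1 of 8 clamp, loader and RPA genes, 0 of 3 origin firing genes and 0 of 5 nucleotide supply genes. Differences between these shares were not tested, and a match in letters says nothing about whether a factor binds there. The windows of the 5 genes with a match and the largest rises are printed with that of Pcna, 5′ to 3′ on the strand of the gene, with motif matches in capitals, to show where the letters sit:

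Mcm5, chr8:75109259-75109558, plus strand: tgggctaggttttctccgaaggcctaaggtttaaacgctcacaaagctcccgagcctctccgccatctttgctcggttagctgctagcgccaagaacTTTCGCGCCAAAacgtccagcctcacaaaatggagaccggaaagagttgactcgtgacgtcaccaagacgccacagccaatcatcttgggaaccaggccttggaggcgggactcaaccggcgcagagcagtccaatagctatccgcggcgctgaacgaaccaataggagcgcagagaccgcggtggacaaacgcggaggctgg
Lig1, chr7:13278576-13278875, plus strand: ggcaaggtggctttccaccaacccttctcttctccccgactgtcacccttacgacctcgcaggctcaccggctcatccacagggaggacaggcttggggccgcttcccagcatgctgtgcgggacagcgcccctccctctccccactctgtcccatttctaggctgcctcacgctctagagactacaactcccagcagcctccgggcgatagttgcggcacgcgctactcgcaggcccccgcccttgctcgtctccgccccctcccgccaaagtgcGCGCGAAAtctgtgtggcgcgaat
Uhrf1, chr17:56304063-56304362, plus strand: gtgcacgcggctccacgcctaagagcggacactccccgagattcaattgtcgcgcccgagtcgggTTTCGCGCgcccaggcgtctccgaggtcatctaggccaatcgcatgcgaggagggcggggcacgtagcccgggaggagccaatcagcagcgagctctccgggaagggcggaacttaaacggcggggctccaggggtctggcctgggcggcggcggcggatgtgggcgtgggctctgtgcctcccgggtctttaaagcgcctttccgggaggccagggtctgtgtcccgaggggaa
Rfc3, chr5:151651159-151651458, minus strand: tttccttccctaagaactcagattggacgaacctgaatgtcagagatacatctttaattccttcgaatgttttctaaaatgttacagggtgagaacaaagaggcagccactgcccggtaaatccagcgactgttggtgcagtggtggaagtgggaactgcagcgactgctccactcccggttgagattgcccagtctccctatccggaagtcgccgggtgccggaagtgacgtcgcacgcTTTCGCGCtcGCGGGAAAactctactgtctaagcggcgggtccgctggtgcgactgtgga
Mcm7, chr5:138171834-138172133, minus strand: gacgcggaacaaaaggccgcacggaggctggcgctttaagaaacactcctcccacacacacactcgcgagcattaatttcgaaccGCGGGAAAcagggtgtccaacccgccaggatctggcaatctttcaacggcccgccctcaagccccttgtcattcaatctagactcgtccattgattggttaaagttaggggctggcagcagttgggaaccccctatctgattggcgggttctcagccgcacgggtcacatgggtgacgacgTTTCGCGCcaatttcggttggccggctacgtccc
Pcna, chr2:132253131-132253430, minus strand: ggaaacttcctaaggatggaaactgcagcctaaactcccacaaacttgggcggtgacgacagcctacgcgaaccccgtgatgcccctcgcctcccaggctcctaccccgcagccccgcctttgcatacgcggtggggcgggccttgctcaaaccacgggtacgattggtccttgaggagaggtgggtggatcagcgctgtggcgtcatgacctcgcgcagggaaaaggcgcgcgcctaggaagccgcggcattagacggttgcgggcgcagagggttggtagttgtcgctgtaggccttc

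Lig1 has 3 windows, and Uhrf1 and Mcm7 have 2 each, and the window printed is one with the most matches. Positions count from 1 at the first transcribed base of the printed window, with -1 just before it. In Mcm5 the matches begin at -153 and -149 and overlap. In Uhrf1 the match begins at -185 and in Lig1 at 27. Rfc3 has matches at -10 and 1, and Mcm7 has them at -165 and 17.

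Licensing genes came close to no shift as a group, with a median log2 difference of 0.02 and a range from -0.23 to 0.16 over 8 genes. Orc3, an ORC subunit, had values of 8.11, 8.07, 8.03 and 8.07 in acLDL cells, against 8.16, 7.97, 8.0 and 8.26 in unloaded cells. Its 95% interval for the difference ran from -0.18 to 0.13, which leaves room for a change of either sign. Orc5, another subunit, read 7.35, 7.54, 7.23 and 7.54 in acLDL cells, against 7.79, 7.59, 7.44 and 7.76 in unloaded cells. The groups overlapped, and the difference of -0.23 ± 0.09 (SE) did not pass (limma adjusted p = 0.0886). Orc5 passed as lower in 4 of 20 alternatives: without unloaded arrays 2 and 3 (0.0174), without unloaded array 3 (0.0276), after cyclic loess (0.0323) and with the replicate block (0.0392). Its unloaded values were higher on arrays 1 and 4 than on arrays 2 and 3, the split seen over all genes. Cdc6 and Cdt1, which bring the helicase to ORC, differed by 0.16 ± 0.07 and 0.11 ± 0.07 (SE), with adjusted p of 0.116 and 0.265. Orc1, the subunit that in mammals comes and goes with the cell cycle, differed by 0.06 ± 0.07 (SE) at a level below the olfactory mark. Orc2, Orc4 and Orc6 differed by 0.06, -0.15 and -0.02.

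The 6 subunits of the MCM2-7 helicase, which unwinds DNA at the fork, were all higher in mean in acLDL cells, and 5 passed. Mcm2 read 7.94, 7.77, 7.65 and 7.75 in acLDL cells, against 7.38, 7.34, 7.34 and 7.27 in unloaded cells. Its groups were apart by more than the range of the unloaded arrays, and it was 1.36-fold higher (log2 difference 0.45 ± 0.07 SE, limma adjusted p = 0.000422). Mcm5 read 7.22, 7.41, 7.13 and 7.10 in acLDL cells, against 6.72, 6.85, 6.78 and 6.75 in unloaded cells. It was also 1.36-fold higher, with no overlap (adjusted p = 0.000739). Mcm7, Mcm3 and Mcm4 rose by 0.34, 0.27 and 0.26. The calls of Mcm3 and Mcm4 were the less firm. Mcm3 missed the threshold without acLDL array 1 or without unloaded array 2 or 3, with an adjusted p of up to 0.0660. Mcm4 missed it without acLDL array 1, 2 or 4 or unloaded array 2 or 3, with an adjusted p of up to 0.0638, and after median centring, and its groups overlapped. Mcm6 read 8.54, 8.57, 8.42 and 8.51 in acLDL cells, against 8.52, 8.21, 8.26 and 8.26 in unloaded cells. Unloaded array 1 reached into the acLDL range, and Mcm6 did not pass (difference 0.19 ± 0.08 SE, adjusted p = 0.0811). It passed in 4 of 20 alternatives, among them the fit without that array (0.26, adjusted p = 0.0101).

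**Figure D2:**
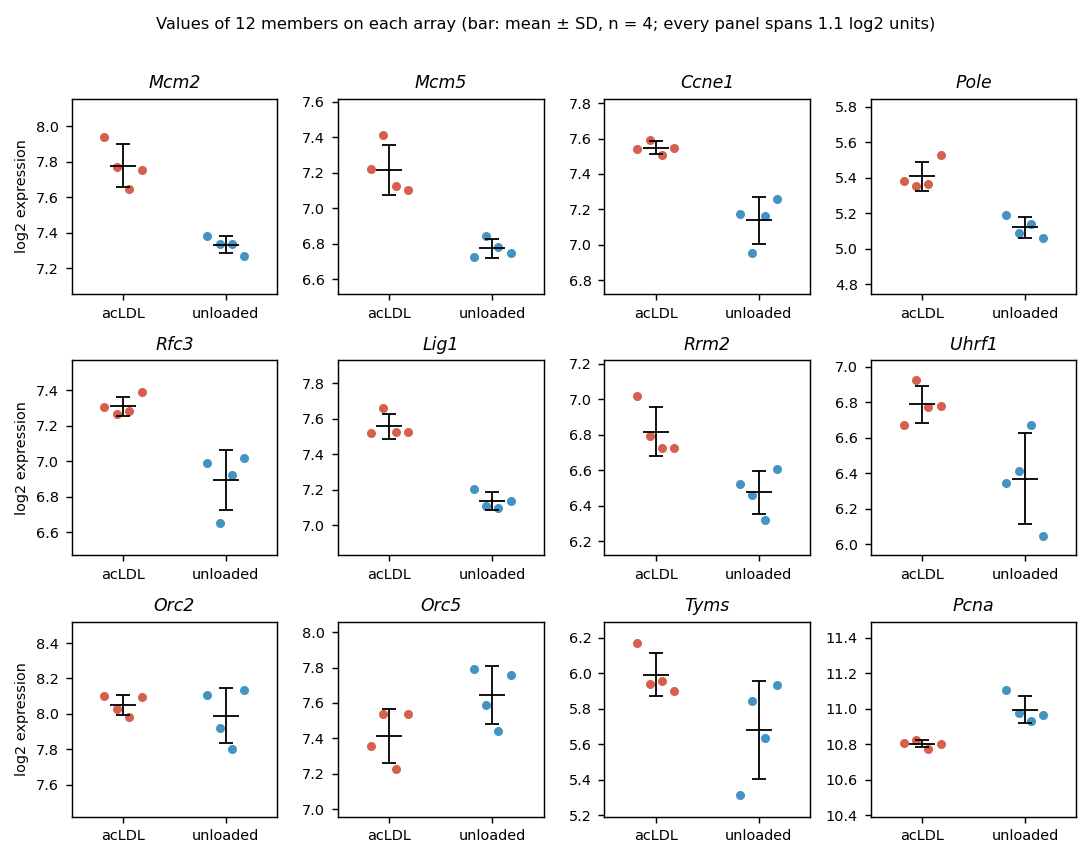
Log2 expression (y axis) on each array (points) of acLDL and unloaded cells (x axis) for 12 genes, with the mean and SD of 4 arrays as bars. Mcm2, Mcm5, Ccne1, Pole, Rfc3, Lig1, Rrm2 and, narrowly, Uhrf1 are higher on all acLDL arrays, Orc2, Orc5 and Tyms overlap, and Pcna is lower on all acLDL arrays.

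Among genes that fire licensed origins, Ccne1, which encodes cyclin E1, changed the most. It read 7.54, 7.59, 7.51 and 7.55 in acLDL cells, against 7.18, 6.95, 7.17 and 7.26 in unloaded cells. The acLDL arrays were close together and all above the unloaded ones, and Ccne1 was 1.33-fold higher (log2 difference 0.41 ± 0.07 SE, adjusted p = 0.000898). Ccne2, for cyclin E2, read 4.44 ± 0.16 in acLDL and 4.22 ± 0.03 in unloaded cells (SD, n = 4), far below the olfactory mark. It did not pass (adjusted p = 0.0511), though its groups were apart, and it passed in 7 of the 19 alternatives that tested it, with an adjusted p between 0.0120 and 0.158 over them. Mcm10, a factor that activates the loaded helicase, read 6.29, 6.16, 6.16 and 6.30 in acLDL cells, against 5.80, 5.95, 6.01 and 5.96 in unloaded cells. It rose by 0.30 ± 0.07 (SE, adjusted p = 0.00601). Gins1 and Gins2, subunits of the GINS complex that joins the helicase to Cdc45, rose by 0.26 and 0.28. Gins1 missed the threshold without acLDL array 2 or unloaded array 4 (adjusted p of up to 0.0603). Gins2 missed it without acLDL array 1, 2 or 3 or unloaded array 3 or 4, with an adjusted p of up to 0.115, and after cyclic loess or removal of the trend with gene length. Cdc45 differed by 0.15 ± 0.06 (SE) and did not pass (adjusted p = 0.100).

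Of the primase and polymerase genes 4 rose and 4 did not pass. Pold2, the second subunit of polymerase delta, read 6.68, 6.40, 6.50 and 6.53 in acLDL cells, against 6.21, 6.29, 6.36 and 5.95 in unloaded cells. It was higher by 0.33 ± 0.09 (SE, adjusted p = 0.0177), and missed the threshold without acLDL array 1 (0.0638). Pola2, the accessory subunit of the polymerase that starts each strand, read 7.28, 7.33, 7.18 and 7.28 in acLDL cells, against 6.83, 7.08, 7.05 and 6.95 in unloaded cells. It rose by 0.29 ± 0.07 (SE, adjusted p = 0.00804). Pold1, the catalytic subunit of polymerase delta, read 7.41, 7.59, 7.59 and 7.46 in acLDL cells, against 7.08, 7.23, 7.41 and 7.24 in unloaded cells. Its groups nearly met without overlapping, and it rose by 0.28 ± 0.08 (SE, adjusted p = 0.0181). Without acLDL array 2 or 3 it missed the threshold (up to 0.0572), and without unloaded arrays 1 and 4 Pola2, Pold1 and Pold2 all missed it. Pole, the catalytic subunit of the leading-strand polymerase, rose by 0.29 ± 0.06 (SE, adjusted p = 0.00543) at a level below the olfactory mark. Pola1, the catalytic partner of Pola2, had a negative difference of -0.12 ± 0.07, and so had Prim1, the catalytic primase subunit, at -0.24 ± 0.08 (SE). They did not pass (adjusted p of 0.226 and 0.0572). Prim1 passed as lower in 5 of the 19 alternatives that tested it, among them the replicate block (0.0376) and the fits without acLDL array 2 (0.0427) or unloaded array 3 (0.0236). Prim2 and Pole2 each differed by 0.05, with intervals from -0.12 to 0.23 and from -0.10 to 0.20.

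Of the genes of the clamp, its loader and single-strand binding, 3 rose, 1 fell by a narrow call and 5 did not pass. Rfc3, a subunit of the loader that opens the clamp and sets it on DNA, read 7.30, 7.27, 7.28 and 7.39 in acLDL cells, against 6.99, 6.65, 6.92 and 7.02 in unloaded cells. Every acLDL array was above every unloaded array, and Rfc3 was 1.33-fold higher (log2 difference 0.42 ± 0.08 SE, adjusted p = 0.00201). Rfc4 read 6.93, 7.10, 6.85 and 7.02 in acLDL cells, against 6.71, 6.60, 6.73 and 6.79 in unloaded cells. It rose by 0.27 ± 0.07 (SE, adjusted p = 0.0139, and 0.0510 without acLDL array 2). The other loader subunits did not pass, with differences of 0.17 for Rfc5, 0.05 for Rfc2 and -0.06 for Rfc1, the large subunit. Of the single-strand binding protein RPA, Rpa1 rose by 0.24 ± 0.06 (SE, adjusted p = 0.0157), a call lost after median centring (0.0504). Its smaller subunits Rpa2 and Rpa3 differed by 0.12 and 0.18 and did not pass, Rpa3 narrowly (adjusted p = 0.0543). Rpa3 passed in 5 of 20 alternatives, among them the fit without unloaded array 4 (0.0404). A further Rpa3 probe set, with lower values, differed by 0.08 and did not pass in limma among all annotated probe sets (adjusted p = 0.549).

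Pcna, the clamp itself, was the gene that fell. It read 10.81, 10.82, 10.78 and 10.80 in acLDL cells, against 11.11, 10.98, 10.93 and 10.97 in unloaded cells. The groups did not overlap, with unloaded array 1 the highest, and Pcna was 1.14-fold lower (log2 difference -0.19 ± 0.06 SE, adjusted p = 0.0340). The call was narrow. It was lost in 7 of the 8 fits that left out 1 array, with an adjusted p of up to 0.0811 and differences between -0.21 and -0.16, and kept without unloaded array 3. It was also lost when arrays were centred on their medians. A further probe set for Pcna gave almost the same values, with a difference of -0.20. RefSeq lists the pseudogenes Pcna-ps1 and Pcna-ps2, and these probe sets list the same transcripts, so copies of the gene may share the signal. Among the 9 genes of the clamp, its loader and RPA, 7 had a positive difference.

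**Figure D3:**
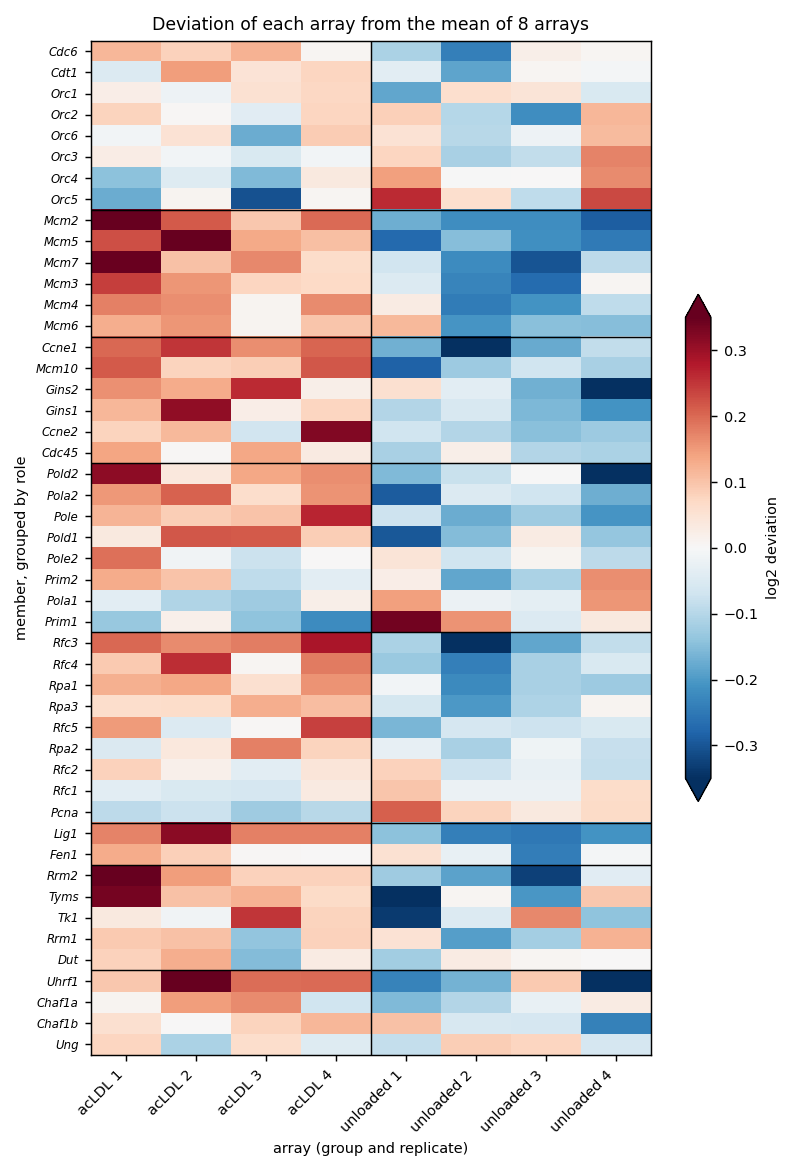
Deviation of each array (x axis) from the mean of the 8 arrays, in log2 units, for each of the 48 genes (y axis, grouped by role; lines separate roles and treatments). The acLDL arrays are mostly above the mean in the MCM, origin firing and Lig1 rows and below it in the Pcna row, and the licensing rows show no common direction between the treatments.

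Of the enzymes that finish Okazaki fragments, the short pieces of the lagging strand, Lig1 rose and Fen1 did not pass. Lig1, the ligase that seals them, read 7.52, 7.66, 7.52 and 7.52 in acLDL cells, against 7.20, 7.11, 7.10 and 7.14 in unloaded cells. It was 1.34-fold higher with the smallest adjusted p of the 48 genes (log2 difference 0.42 ± 0.06 SE, adjusted p = 0.000260). Fen1, the flap nuclease, read 7.63, 7.58, 7.50 and 7.50 in acLDL cells, against 7.55, 7.48, 7.26 and 7.49 in unloaded cells. The groups overlapped and its 95% interval ran from -0.05 to 0.27.

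In nucleotide supply, the regulated subunit of ribonucleotide reductase rose and the other genes did not pass. Rrm2, the subunit made in S phase, read 7.02, 6.79, 6.73 and 6.73 in acLDL cells, against 6.52, 6.46, 6.32 and 6.61 in unloaded cells. It was 1.27-fold higher (log2 difference 0.34 ± 0.08 SE, adjusted p = 0.00852). Rrm1, the large subunit, read 8.64, 8.65, 8.41 and 8.63 in acLDL cells, against 8.60, 8.36, 8.43 and 8.67 in unloaded cells. Its groups overlapped throughout, with a difference of 0.07 and an interval from -0.11 to 0.25. Tyms, the thymidylate synthase gene, read 6.17, 5.94, 5.96 and 5.90 in acLDL cells, against 5.31, 5.84, 5.63 and 5.93 in unloaded cells. Unloaded array 1 was the lowest, and the difference of 0.31 ± 0.11 (SE) did not pass (adjusted p = 0.0638). Tyms passed in 5 of the 19 alternatives that tested it, among them those without unloaded array 2 (0.0491) or 4 (0.0259). Without unloaded array 1 it did not pass, and the difference was 0.19, the lowest with 1 array left out. Over the fits that left out 1 array its limma adjusted p was up to 0.181. RefSeq lists the pseudogene Tyms-ps, which may share its signal. Tk1, which salvages thymidine, differed by 0.18 ± 0.10 (SE, adjusted p = 0.216), and passed in 2 of 20 alternatives, which left out unloaded array 3 (0.0436) or unloaded arrays 2 and 3 together (0.0228). A further Tk1 probe set, with lower values, differed by 0.30 and missed the threshold among all annotated probe sets (0.0576). Dut, which removes dUTP, differed by 0.04, with an interval from -0.11 to 0.20.

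Among genes that act behind the fork, Uhrf1, which guides the upkeep of DNA methylation, read 6.67, 6.93, 6.78 and 6.78 in acLDL cells, against 6.35, 6.41, 6.67 and 6.05 in unloaded cells. The lowest acLDL array and the highest unloaded array nearly met, and the rise was 1.34-fold (log2 difference 0.42 ± 0.11 SE, adjusted p = 0.0116). Without unloaded arrays 1 and 4 it did not pass (difference 0.25). The subunits of the histone chaperone CAF-1 differed by 0.13 for Chaf1a and 0.12 for Chaf1b and did not pass. Chaf1b read 7.59, 7.53, 7.61 and 7.65 in acLDL cells, against 7.63, 7.47, 7.47 and 7.30 in unloaded cells, which overlap. Ung, the uracil glycosylase, differed by -0.01, with an interval from -0.16 to 0.14.

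Of the 20 genes that passed, 7 did so in every one of the alternatives that tested them: Mcm2, Mcm5, Mcm10, Ccne1, Pole, Rfc3 and Lig1. Of the 28 that did not pass, 18 passed in none of the alternatives, and 0 of the 48 genes passed with opposite signs in different ones.

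**Figure D4:**
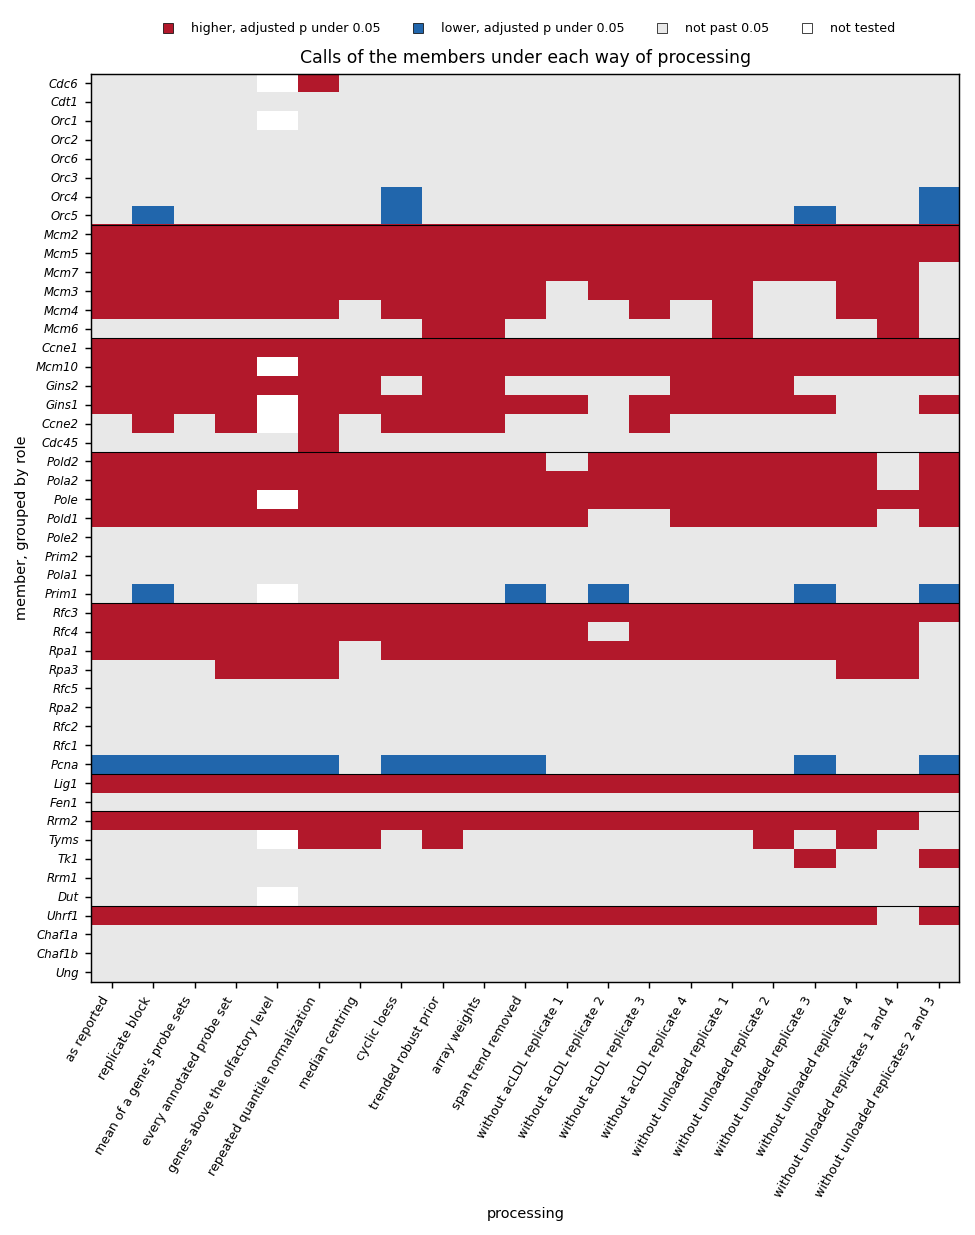
Outcome of the limma test for each of the 48 genes (y axis, grouped by role) as reported and under each of 20 alternatives (x axis); red is higher and blue is lower at an adjusted p under 0.05, grey is not past it and white is not tested. Mcm2, Mcm5, Ccne1, Rfc3 and Lig1 are red in every column, and Pcna changes between blue and grey.

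A further list held other fork, origin and checkpoint factors. Of its 36 measured genes 6 rose, 2 fell and 28 did not pass, a share of 22.2% close to the 23.3% over all genes, and the median log2 difference was 0.07. Asf1b, a histone chaperone that hands histones to CAF-1, rose by 0.43 ± 0.07, Tonsl, which reads newly made chromatin, by 0.34 ± 0.08, and Pclaf, a PCNA-binding protein, by 0.28 ± 0.07 (SE). The falls were Pold3, a subunit of polymerase delta, by 0.26, and Dnmt1, the maintenance DNA methyltransferase that Uhrf1 recruits, by 0.23. Without acLDL array 1 or 3 there were 3 rises, and 11 after repeated quantile normalisation. The falls were 0 without acLDL array 1 and 1 without acLDL array 2 or without unloaded array 1, 2 or 4.

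Mitosis genes were largely higher. Of 38 measured genes 21 rose (55.3%, beside 12.9% over all genes), 2 fell (5.26%, beside 10.5%) and 15 did not pass, with a median of 0.26. Of the 38 genes 22 lay above the olfactory level, and with the test run over such genes alone 14 rose. Ccna2 (cyclin A2, which acts in S phase and mitosis), Top2a (topoisomerase II) and Anln (anillin, of cell division, below the olfactory level) had the largest differences, at 0.82 ± 0.06, 0.69 ± 0.07 and 0.69 ± 0.08 (SE). No test of a difference between this list and the 48 genes was made. The falls, Smc4 and Pttg1, numbered 0 without acLDL array 1 or 3 or unloaded array 1 or 4, and 1 without acLDL array 2 or 4.

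Genes of nucleotide synthesis and salvage outside the 48 included larger changes. Of 36 measured genes 15 rose (41.7%, beside 12.9% over all genes), 2 fell (5.56%, beside 10.5%) and 19 did not pass, with a median of 0.12. In the test over genes above the olfactory level alone, 15 of 34 rose and 3 fell, beside 2612 and 1869 of 11653. Mthfd2, a mitochondrial folate enzyme, rose by 1.00 ± 0.09, Nme1, a nucleoside diphosphate kinase, by 0.80 ± 0.09, and Adssl1, of adenylate synthesis, by 0.74 ± 0.07 (SE). Nme1 has a near-identical neighbour, Nme2, so its value is uncertain. The 2 falls in the fit of all genes were Adss, the other adenylosuccinate synthase, by 0.37 and Cmpk1, a pyrimidine nucleotide kinase, by 0.35.

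Regulators of cell cycle entry went both ways. Of 35 measured genes 7 rose (20%), 6 fell (17.1%) and 22 did not pass, with a median of 0.08. Over all genes tested 12.9% rose and 10.5% fell. With the test run over genes above the olfactory level alone, 9 of 32 rose and 6 fell, beside 2612 and 1869 of 11653. Ccnd1, which encodes cyclin D1, rose by 0.77 ± 0.08, Myc by 0.69 ± 0.07 and Cdk6, a partner of the D cyclins, by 0.47 ± 0.07 (SE). E2f1, an activator of replication genes, rose by 0.35 ± 0.10 (SE, adjusted p = 0.0256). The other E2F genes of the list did not share one direction. E2f4 rose by 0.24 ± 0.06 and E2f3 fell by 0.38 ± 0.08 (SE, limma adjusted p of 0.0118 and 0.0046). E2f2, E2f5, E2f6, E2f7 and E2f8 did not pass. The falls were Rb1, which encodes the retinoblastoma protein that holds E2F factors in check, Cdkn1c, Cdkn1b, E2f3, Rbl2 and Mxd1. Rb1 fell by 0.43, and Cdkn1c and Cdkn1b, which encode the kinase inhibitors p57 and p27, fell by 0.40 each. Of 28 measured DNA damage response genes 2 rose, 3 fell and 23 did not pass, a called share of 17.9% beside the 23.3% over all genes. Among these, Mdm2, which marks p53 for degradation, fell by 0.45, and Zmat3 and Xrcc1 rose by 0.37 and 0.33.

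**Figure D5:**
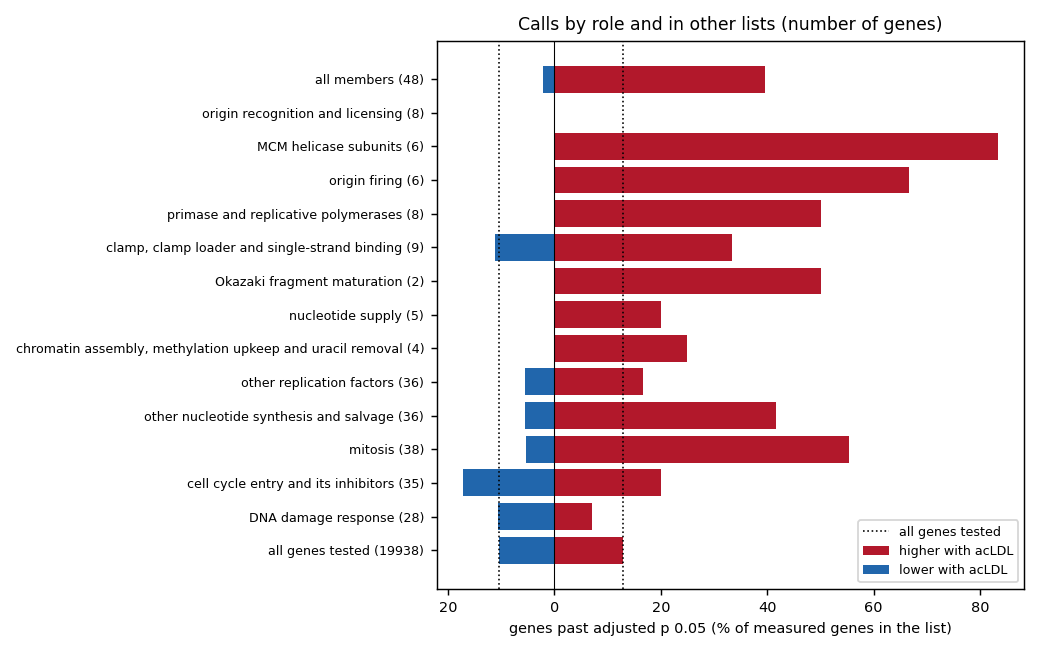
Share of measured genes (x axis, percent) that rose (red, right) or fell (blue, left) at an adjusted p under 0.05, by role and in the other lists (y axis, number of genes in brackets); dotted lines mark the shares over all genes tested. The MCM, origin firing and mitosis bars reach past 50% on the right, the licensing row has no bar, and the DNA damage bar on the right stops short of its dotted line.

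Markers of cells other than macrophages were followed beside these results. Of 12 markers of mesothelial cells and fibroblasts, Sparc rose, Col1a2 and Dcn fell and 9 did not pass. That is a called share of 25%, close to the 23.3% over all genes. Their mean level was 7.91 to 8.03 on acLDL arrays and 7.92 to 8.06 on unloaded arrays, and Dcn, the brightest, read 10.49 in acLDL and 10.75 in unloaded cells. Lum, Msln and Krt19 lay at or below the olfactory mark. Of 10 markers of mast cells, basophils and eosinophils 1 fell, Siglecf, by 0.60, with 3 of 10 above the mark. Of 9 neutrophil markers Ly6g and Camp fell, at levels below the mark. The called shares of these lists were 10% and 22.2%, beside the same 23.3%. Mean levels were 5.48 to 5.52 on acLDL and 5.51 to 5.62 on unloaded arrays for the mast cell list, and 5.27 to 5.36 and 5.34 to 5.46 for the neutrophil list. None of the markers of T and NK cells (8 measured), B and plasma cells (7), dendritic cells (7) or erythroid cells (3) passed in limma, with an unadjusted p under 0.05 for Cd79a and Epor. The part of these cells in the replication results was not tested.

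The relation of expression to gene length was also followed on each array. The Spearman correlation across 11627 genes above the olfactory level between an array's deviation and genomic span was -0.20 to -0.01 on acLDL arrays and -0.05 to 0.23 on unloaded arrays (exact permutation p = 0.114, 0.171 after Benjamini-Hochberg adjustment over 3 array measures). Among the 48 genes the difference and the span correlated at a Spearman rho of -0.23, a description over genes that share the 8 arrays. Over the 39 of them above the olfactory level rho was -0.31. With the span trend removed from each array, Gins2 lost its call and Prim1 gained one as lower, and no other call among the 48 genes changed. The olfactory median, 4.36 to 4.41 on acLDL and 4.43 to 4.52 on unloaded arrays, differed by -0.08 (exact permutation p = 0.0286, the smallest that 4 arrays against 4 can give, and 0.0857 after adjustment).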

How the data were processed

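RNA of 8 cultures was measured on 8 arrays. The deposited values are log2 expression per probe set made with RMA (background correction, normalisation between arrays and summary of probes), per the submitters' processing notes; no version is stated. Of 35557 probe sets 21789 carry 1 gene symbol and 1621 several, and 12147 are not annotated here. Each gene was represented by its probe set with the highest mean, giving 19938 genes. All were fitted together by lmFit and eBayes of limma 3.58.1 (R 4.3.3), two-sided and without a block, with Benjamini-Hochberg adjustment over them all and a threshold of 0.05. Single values per array had exact permutation tests. The fit was tested on simulated data. Precision is limited by 4 arrays a group, with a median SE of 0.072 for the 48 genes. The members, lists and alternatives were chosen with earlier results of these data known. In each role, arrays are given for the 2 largest changes past the threshold, for any that fell and for the brightest gene; in other lists the 3 largest changes are named. Orc5, Tyms, the E2F genes, the falls in other lists and the counts by role in the promoters are named outside the rule. Their values were known. Of marker lists, only genes that passed, those at background and the brightest of the mesothelial list are named. Figures used matplotlib 3.10.9 in Python 3.11.15. Members of the lists with no probe set of 1 symbol were not analysed here.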

Additional observations from a re-analysis of the deposited data

Results flagged for a closer look

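In 4 of 96 groups of 4 arrays, 1 array stood far from the others of its group for its size of range, and chance alone gives about 1 in 20 such groups. Mcm4 was low on acLDL array 3, at 7.13, with the other acLDL arrays at 7.28 to 7.29. Lig1 was high on acLDL array 2, at 7.66 against 7.52 to 7.52 on the others, and remains called without that array. Rrm1 was low on acLDL array 3, at 8.41, with the others at 8.63 to 8.65. Cdc45 was high on unloaded array 2, at 6.81, with the others at 6.67 to 6.69.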

How the results depend on the processing

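The rises among the 48 genes numbered 13 to 24 over all alternatives, within 1.5 times the 19 reported, and their median difference stayed positive in each. The falls, 1 as reported, numbered 3 with the replicate block, 0 after median centring, 3 after cyclic loess, 2 with the span trend removed, 0 without unloaded arrays 1 and 4, 4 without unloaded arrays 2 and 3, and 0 to 3 when each array was left out. The replicate block gave 2663 rises and 2197 falls over all genes and 20 rises among the 48 genes, adding Ccne2 as higher and Orc5 and Prim1 as lower. The numbers were not taken to pair the arrays, since the labels tie no replicate number to a mouse or day. Residuals of equal replicate numbers correlated at 0.11, -0.16, 0.30 and 0.14, and 2 of 4 acLDL arrays correlated best with their own number. These values do not settle whether the arrays were paired. Other replication factors had 11 rises after repeated quantile normalisation, 4 falls after cyclic loess and 0 falls without unloaded arrays 1 and 4, and 3 to 8 rises and 0 to 2 falls with each array left out. Falls in nucleotide synthesis numbered 1 without unloaded arrays 1 and 4 and 4 without unloaded arrays 2 and 3. Falls in mitosis numbered 1 after median centring, 0 without unloaded arrays 1 and 4, and 0 to 2 with each array left out. DNA damage genes had 4 rises after repeated quantile normalisation or without either pair of unloaded arrays, with 1 fall without arrays 1 and 4 and 5 without arrays 2 and 3. The olfactory median, acLDL minus unloaded, was -0.115 without unloaded arrays 1 and 4 and -0.0444 without arrays 2 and 3 (exact permutation p of 0.0667 and 0.133, with 0.0667 the smallest possible). The causes were not tested. Signals near the olfactory level limit what can be said of the 9 dim genes.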
